A study of Mus musculus with 12 samples.

Results

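Tead2-EnR joins the mouse DNA-binding factor Tead2 to the repression domain of the Drosophila Engrailed protein. The comparison described here sets NIH3T3 fibroblasts that expressed this repressor, 2 arrays, against NIH3T3 cells that carried a control virus, 2 arrays, with both groups harvested at low density. These are 4 of the 12 arrays of the study, chosen by their labels, and 18193 genes were compared on them, each by 1 probe set. NIH3T3 is an immortalised line of mouse embryo fibroblasts whose growth stops when the cells touch each other. RNA was taken from 35 mm dishes and read on Affymetrix arrays that cover the mouse genome's transcripts. The Tead2-EnR cells were collected at 30% confluency, counted against these cells' own confluence, and the control cells at 30% confluency. Both groups share the parental line and, as far as the labels say, no other allele or drug. Whether the expressing cells were a clone or a pool, and whether the 2 arrays of each group stem from different dishes, is not stated, so the p-values below measure only the spread between arrays. The other groups of the study, 2 arrays each, are Tead2-VP16 cells and control cells at complete confluency, which are used below, and Tead2-VP16 and Yap cells at high density, which only add to the estimate of the spread.

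Tead factors bind DNA but need partners to act on a gene. Their main partners, Yap and Taz (gene Wwtr1), are held in the cytoplasm by the Hippo kinases when cells are crowded and enter the nucleus when cells are sparse, where the complex switches on genes of growth and of matrix attachment. An Engrailed fusion occupies the same sites with a repressor, and a fusion with VP16, a viral activation domain, occupies them with an activator that does not need Yap. In fibroblasts the best known genes of this pathway include Ccn1, Ccn2 and Ankrd1.

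All levels below are log2 of the deposited intensity, and every difference is Tead2-EnR minus control on that scale unless another pair is named. Calls rest on limma with Benjamini-Hochberg adjustment over all 18193 genes, at an adjusted p under 0.05. Of all genes, 38.4% were called, 20.3% higher and 18.1% lower in Tead2-EnR cells. Calls need signal: among the 9267 genes whose higher group mean lay above the median gene, 32.4% were called higher and 29.8% lower, which is the nearer background for groups of abundant messages. The split depends on the scaling: with every array centred on its median, which shifts the median difference of all genes by -0.12, 32.1% of the called genes were higher, against 52.8% with the deposited scaling. Differences smaller than that shift have no settled direction. The rises were the larger: 451 genes were called and at least 2-fold higher (2.48% of all), and 150 were called and at least 2-fold lower (0.824%). Of the 451, 191 had a control mean below the median gene, and of the 150, 31 had a Tead2-EnR mean below it. Without detection calls, the size of a change that starts or ends near the floor is uncertain. Beyond a log2 difference of 3 lay 15 genes that rose and 0 that fell. For 64.1% of all genes the arrays of the groups did not overlap. Signs of RNA quality and control probes moved with the groups: the 3' minus 5' signal of the transferrin receptor was 1.13 and 1.10 on the Tead2-EnR arrays, against 1.02 and 0.94 on the control arrays, and the 24 spiked-in bacterial poly-A probe sets averaged 8.53 and 8.57 on the Tead2-EnR arrays, against 8.13 and 8.26 on the control arrays. The gap in the spike-ins was wider than the shift of 0.12 above, and the part of these differences in the results was not tested.

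**Figure D1:**
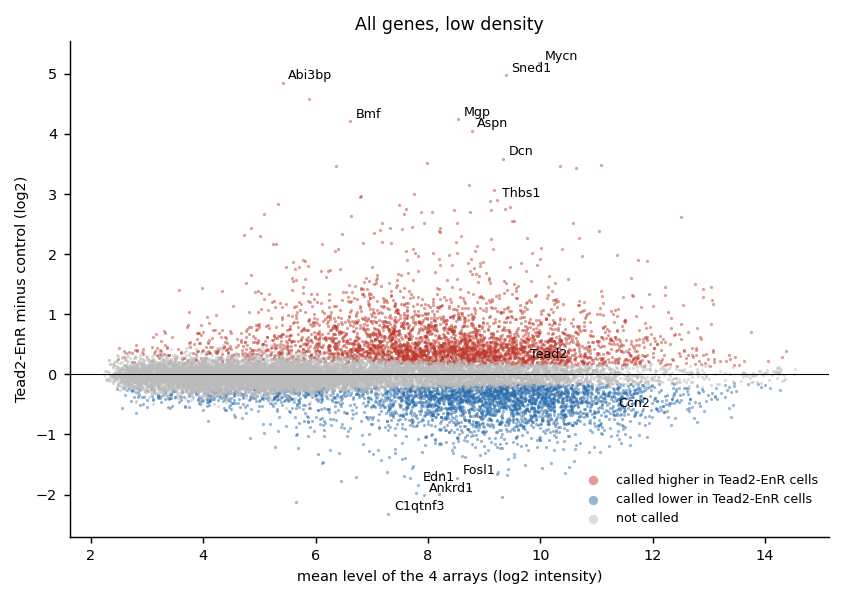
Each point is 1 gene, with its mean level on the 4 low-density arrays on the x axis (log2 intensity) and Tead2-EnR minus control on the y axis (log2). The rises reach 5.18 (Mycn), while the deepest fall is -2.32 (C1qtnf3), and Tead2 lies close to 0.

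The cells carry the profile of fibroblasts in both groups. Of 11 fibroblast markers, 8 were called higher and 0 lower, and their summed intensity was 108689 and 108677 on the Tead2-EnR arrays, against 93362 and 95036 on the control arrays. Among 12 macrophage markers, Lyz2 (2.74) and Cd14 (0.61) rose and Cd68 (-0.57) fell, and the summed intensity was 2289 and 2219 on the Tead2-EnR arrays, against 908 and 875 on the control arrays. Most of that change was Lyz2, a lysozyme gene: without it the sums were 827 and 801 on the Tead2-EnR arrays, against 685 and 665 on the control arrays. The defining macrophage genes Ptprc and Adgre1 were not called and stood well below the median gene, with means of 3.26 and 4.65 in Tead2-EnR cells and 3.51 and 4.76 in control cells, and Csf1r, also not called, stood close to it, with means of 7.01 on the Tead2-EnR arrays and 6.94 on the control arrays. Of the endothelial, epithelial, skeletal muscle, adipocyte and neural lists, each had at most 3 members called higher and at most 2 called lower, the most by size being the neural tubulin Tubb3 (-1.53). In a culture of this kind, fewer cells of a type and less RNA per cell cannot be told apart.

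Among the 4 Tead genes differences were small, the largest in Tead4. Tead2, the gene from which the fusion was built, had 9.84 and 9.82 in Tead2-EnR cells, against 9.63 and 9.62 in control cells, a difference of 0.21 ± 0.066 (SE, adjusted p = 0.032). The call was lost without any of the 4 arrays (differences of 0.19 to 0.22) and with arrays centred on their medians (0.086). Its single probe set may or may not read the fusion transcript, since the stretch it matches was not given, so it is no check of the label. Tead1 (-0.026), Tead3 (0.21), Yap1 (-0.019) and Wwtr1 (0.05) were not called. Tead4 fell by 0.66. Of the Vgll cofactors, which bind Tead factors where Yap does, Vgll3 fell by 1.02 and Vgll4 rose by 0.58. Of 20 Hippo kinases and scaffolds, 5 were called higher and 6 lower, none by 2-fold, shares of 25% and 30% that lie near or below those of abundant messages: the scaffold Wwc1 had -0.95, the LIM protein Ajuba -0.54, the Merlin gene Nf2 -0.34 and the angiomotin Amot 0.44.

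Known Yap and Tead targets did not move as 1 group. Of 22 measured, 7 were called higher (31.8%) and 10 lower (45.5%), against 32.4% and 29.8% of abundant messages, so the count of rises is no result about the group. With arrays centred on their medians, 4 were called higher and 10 lower. The median difference was -0.063, against -0.011 over all genes. Ankrd1, a muscle ankyrin repeat protein and a standard readout of Yap, had 6.85 and 6.97 in Tead2-EnR cells, against 8.84 and 9.02 in control cells. Both Tead2-EnR arrays lay below both control arrays, with a difference of -2.01 ± 0.091 (SE, adjusted p = 2.2e-07), which is a 4.04-fold fall. Edn1, the precursor of the vasoconstrictor endothelin and no member of this list, had 6.96 and 6.83 in Tead2-EnR cells, against 8.71 and 8.77 in control cells. It fell by 1.84 ± 0.065 (SE, adjusted p = 5.0e-08). Ccn1, a secreted matrix-associated protein, had 10.10 and 10.10 in Tead2-EnR cells, against 10.70 and 10.67 in control cells, and fell by 0.59, with 2 of its 4 probe sets called lower and 0 higher. Ccn2, the connective tissue growth factor, had 10.97 and 11.02 in Tead2-EnR cells, against 11.59 and 11.62 in control cells, and fell by only 0.61. Ccn2 therefore remained high in Tead2-EnR cells: the same gene averaged 6.51 in confluent control cells. Crim1 (-0.70), Nuak2 (-0.56), Ajuba (-0.54) and the receptor kinase Axl (-0.42) fell. Among the targets that rose were Tgfb2 (1.78), a TGF-beta ligand, and the coagulation factor receptor F3 (1.53).

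The promoter windows of Ankrd1, Edn1 and Ccn1 are shown because Ankrd1 and Ccn1 are standard targets that fell, Edn1 is among the 20 largest falls, and each window, 250 bases before to 50 bases after the start, holds the letters CATTCC, the core that Tead factors bind. The sequences are RefSeq's on GRCm38.p6, written on the strand of the gene, with the core in capitals on either strand (GGAATG is its reverse). The Ankrd1 window spans chr19:36119795-36120094 on the minus strand and holds the core at -210 and -123 from the start, the Edn1 window spans chr13:42301226-42301525 on the plus strand and holds it at -207, and the Ccn1 window spans chr3:145649936-145650235 on the minus strand and holds it at -103.
Ankrd1: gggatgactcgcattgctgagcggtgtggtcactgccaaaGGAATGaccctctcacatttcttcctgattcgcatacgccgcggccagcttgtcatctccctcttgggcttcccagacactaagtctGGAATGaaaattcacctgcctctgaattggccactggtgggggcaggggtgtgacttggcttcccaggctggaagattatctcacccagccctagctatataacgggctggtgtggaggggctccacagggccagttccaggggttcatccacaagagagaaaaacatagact
Edn1: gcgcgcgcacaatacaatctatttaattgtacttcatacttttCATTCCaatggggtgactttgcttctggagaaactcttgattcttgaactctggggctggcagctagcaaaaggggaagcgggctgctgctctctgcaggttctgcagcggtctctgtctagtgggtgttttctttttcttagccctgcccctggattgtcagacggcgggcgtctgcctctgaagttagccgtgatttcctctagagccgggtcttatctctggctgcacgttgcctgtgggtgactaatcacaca
Ccn1: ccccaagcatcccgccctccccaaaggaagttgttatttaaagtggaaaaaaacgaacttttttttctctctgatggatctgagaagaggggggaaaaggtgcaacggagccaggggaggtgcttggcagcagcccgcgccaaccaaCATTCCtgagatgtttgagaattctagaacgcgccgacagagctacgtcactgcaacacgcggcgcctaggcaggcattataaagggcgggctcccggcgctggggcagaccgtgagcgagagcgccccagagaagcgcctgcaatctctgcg
Of the windows of Yap and Tead targets, 44.4% (8 of 18) held the core on either strand, against 13.2% of 18009 windows of all genes tested. The core was not particular to the targets: it was in 72.7% of 11 windows of the Tead factors and cofactors themselves, 35.0% of 20 windows of Hippo kinases and scaffolds, 31.0% of 42 windows of contractile and SRF target genes and 30.8% of 26 windows of chemokines and cytokines. Among genes called and at least 2-fold lower the share was 15%, and among those called and at least 2-fold higher it was 13.6%. A match is a description of letters and not a bound site, and windows of this length leave out distant enhancers.

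The genes that rose most encode secreted matrix proteins, regulators of growth and survival, and enzymes. The highest was Mycn, a transcription factor of the Myc family, with 12.59 and 12.53 in Tead2-EnR cells, against 7.32 and 7.45 in control cells. The difference was 5.18 ± 0.077 (SE, adjusted p = 3.5e-10), a 36.1-fold rise, but only 1 of its 3 probe sets was called higher and 0 lower. Sned1, an extracellular matrix protein, had 11.89 and 11.85 on the Tead2-EnR arrays and 6.96 and 6.83 on the control arrays. Abi3bp, a secreted matrix protein, had 7.89 and 7.79 on the Tead2-EnR arrays and 3.21 and 2.77 on the control arrays. The rises were 4.97 ± 0.064 and 4.85 ± 0.12 (SE, adjusted p = 2.5e-10 and 6.5e-09). Islr, a leucine-rich protein made by mesenchymal cells, had 8.12 and 8.24 in Tead2-EnR cells, against 3.78 and 3.42 in control cells. Mgp, the matrix Gla protein that inhibits calcification, had 10.62 and 10.70 in Tead2-EnR cells, against 6.23 and 6.61 in control cells. The arrays of the groups did not overlap for either gene, which the choice of the largest rises required. The rises were 4.58 and 4.24. Bmf, a killer member of the Bcl-2 family that senses detachment from the matrix, had 8.74 and 8.69 on the Tead2-EnR arrays and 4.35 and 4.67 on the control arrays, and rose by 4.21 ± 0.089 with 2 of 3 probe sets called higher. Abi3bp, Islr and Bmf stood far below the median gene in control cells, at levels where the size of a rise is uncertain without detection calls. Among the next were Lbp (3.52), which binds bacterial lipopolysaccharide, Sox4 (3.48), a developmental transcription factor called higher on 6 of 8 probe sets, Plpp3 (3.47), which degrades lysophosphatidic acid, Aldh3a1 (3.47), an aldehyde dehydrogenase, Scara5 (3.43), a ferritin receptor read as higher by 1 of 2 probe sets, Eya1 (3.15), a transcriptional coactivator, Maged2 (3.06) and Wfdc18 (3.0). Lyz1 (2.89) rose with Lyz2 (2.74), and these near-identical lysozyme genes may share signal on the array.

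The falls were shallower. C1qtnf3, a secreted relative of adiponectin, had 6.002 and 6.27 in Tead2-EnR cells, against 8.54 and 8.38 in control cells, a difference of -2.32 ± 0.11 (SE, adjusted p = 3.6e-07). Slit2, a guidance ligand for Robo receptors, had 7.24 and 7.19 in Tead2-EnR cells, against 9.22 and 9.17 in control cells. Cxcl5, a chemokine that draws neutrophils, had 7.69 and 7.88 in Tead2-EnR cells, against 9.73 and 9.61 in control cells. The arrays did not overlap for any of these 3 genes, which the choice of the largest falls required. The differences of Slit2 and Cxcl5 were -1.98 and -1.88. Fosl1, an AP-1 subunit induced by growth factors, had 7.60 and 7.72 in Tead2-EnR cells, against 9.32 and 9.45 in control cells. Hbegf, a ligand of the EGF receptor, had 7.22 and 7.17 in Tead2-EnR cells, against 8.94 and 8.78 in control cells. Ptgs2, the inducible cyclooxygenase, had 8.39 and 8.46 in Tead2-EnR cells, against 10.13 and 9.97 in control cells. These 3 genes, which growth factors induce, fell, with differences of -1.72, -1.67 and -1.62. Gask1b (-2.04), the natriuretic peptide clearance receptor Npr3 (-1.77), the potassium channel Kcnk2 (-1.71), the TGF-beta feedback protein Pmepa1 (-1.66), the cyclic GMP-dependent kinase Prkg2 (-1.65), the polo-like kinase Plk2 (-1.65), the death receptor Tnfrsf21 (-1.62) and Lrrfip1 (-1.56) were also among the 20 largest falls. Mtm1 (-1.68) belongs to the same 20, but its 3 probe sets disagreed, with 1 called higher and 2 lower. A probe set that the annotation gives to the Mir1949 locus is the last of them not yet named here or below, and it does not read a mature miRNA.

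**Figure D2:**
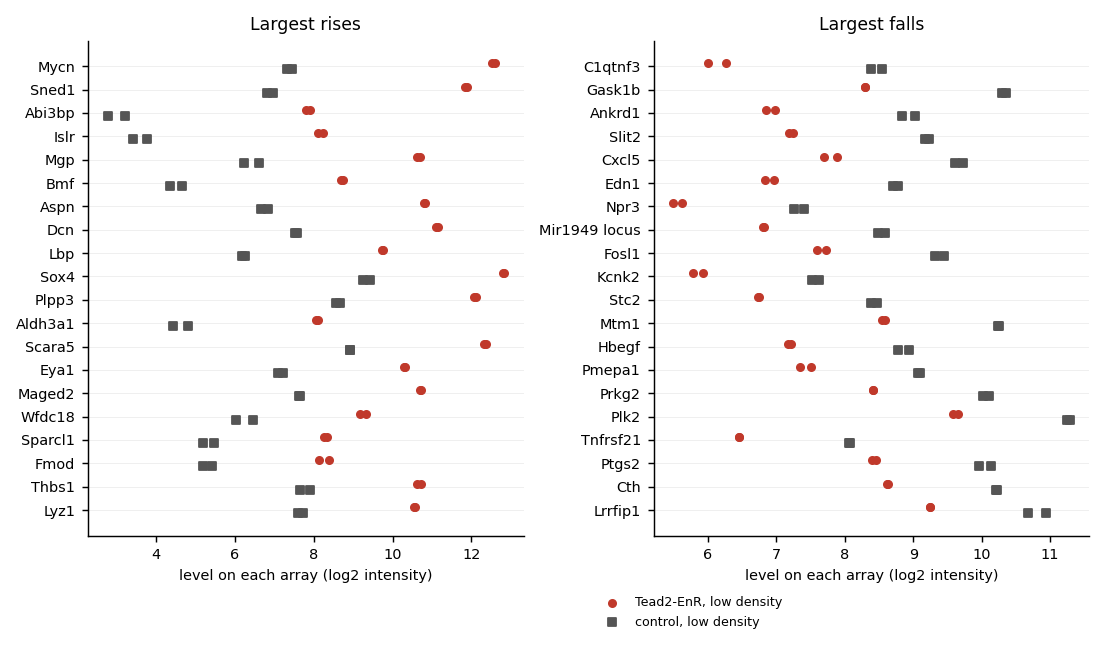
Levels on each array (x axis, log2 intensity) of the 20 genes with the largest rises and the 20 with the largest falls among called genes, with Tead2-EnR arrays as circles and control arrays as squares. The 2 arrays of a group lie close together, and the groups do not overlap for any of these genes, which the choice of the genes required.

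Genes of the extracellular matrix changed in both directions, with the small leucine-rich proteoglycans rising most. These proteoglycans sit on collagen fibrils and control their width. Of 12 measured, 7 were called higher (58.3%, against 32.4% of abundant messages) and 0 lower. Aspn (asporin) had 10.80 and 10.82 in Tead2-EnR cells, against 6.83 and 6.67 in control cells. Dcn (decorin) had 11.10 and 11.16 in Tead2-EnR cells, against 7.57 and 7.53 in control cells. Fmod (fibromodulin) had 8.39 and 8.14 in Tead2-EnR cells, against 5.42 and 5.20 in control cells, with all 6 of its probe sets called higher. The differences were 4.06, 3.58 and 2.95. The control arrays lay below the Tead2-EnR arrays in each case, which the choice of the largest rises required. Fmod stood well below the median gene in control cells, where the size of a rise is uncertain without detection calls. Ogn (1.77), Prelp (1.72) and Bgn (0.61) were among the other members called higher, and Lum had 0.26, not called. Collagen VI, which forms beaded filaments around cells, rose in 3 chains: Col6a1 by 1.88, Col6a2 by 1.90 and Col6a3 by 1.08. Over all 22 collagen genes, 10 were called higher (45.5%) and 5 lower (22.7%), against 32.4% and 29.8% of abundant messages. The main fibrillar chain Col1a1 had 0.05, not called, while Col3a1 rose by 1.04 and Col5a2 (-0.33) and Col4a1 (-0.31) fell.

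Of 20 genes of elastic fibres and crosslinking, 12 were called higher and 4 lower. Emilin1, an elastic fibre glycoprotein, rose by 2.09 and the lysyl oxidases Loxl1 and Loxl3, which crosslink collagen and elastin, by 1.13 and 1.21, while the transglutaminase Tgm2 fell by 1.01. Of 19 matricellular proteins, which sit in the matrix and signal to cells, 8 were called higher and 6 lower, or 7 and 7 with arrays centred on their medians. Thbs1, thrombospondin 1, which activates latent TGF-beta and inhibits vessel growth, had 10.72 and 10.63 in Tead2-EnR cells, against 7.66 and 7.90 in control cells, a rise of 2.89. Sparcl1 had 8.33 and 8.26 in Tead2-EnR cells, against 5.18 and 5.47 in control cells, a rise of 2.97. Its control levels lay well below the median gene, where the size of a rise is uncertain without detection calls. Postn (1.17) and Sparc (0.71) rose, and Ccn4 (-0.76) and Thbs2 (-0.40) fell, as did Ccn1 and Ccn2 above. Of 13 basement membrane genes, 4 were called higher, among them Nid2 (1.33) and Lamb2 (1.15), and 3 lower, among them Nid1 (-0.67) and Lamb1 (-0.48). Of 25 matrix proteases and inhibitors, 9 were called higher and 7 lower: the membrane protease Mmp14 (1.63) rose together with Reck (2.20), a membrane-anchored inhibitor of it, and Mmp19 (1.89), while Adam12 (-1.26), Adam19 (-1.01), Adamts1 (-0.83) and Timp1 (-0.66) fell. The shares were 42.1% higher and 31.6% lower for matricellular proteins, 30.8% and 23.1% for basement membrane genes, and 36.0% and 28.0% for proteases and inhibitors. These lay not far from the 32.4% and 29.8% of abundant messages, so the counts of these 3 groups are no result about them.

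Cell division genes fell as a block. All 46 measured genes of mitosis and the spindle were called lower, with a median difference of -0.66 and a range of -1.05 to -0.24, against 18.1% of all genes called lower. Mybl2, which switches on genes of the late cell cycle, had 8.05 and 7.99 in Tead2-EnR cells, against 8.98 and 9.16 in control cells. Kif23, a kinesin of cell cleavage, had 8.29 and 8.32 in Tead2-EnR cells, against 9.28 and 9.33 in control cells. Foxm1, the transcription factor of mitotic entry, had 9.13 and 9.08 in Tead2-EnR cells, against 10.03 and 9.92 in control cells. Each of the 3 was higher on both control arrays, and the differences were -1.05, -1.005 and -0.87. Of 42 replication genes, 37 were called lower and 2 higher, with the loading factor Cdc6 (-0.91), Mcm10 (-0.79), Mcm3 (-0.68) and the polymerase subunit Pola1 (-0.73) among the lower. Of 28 DNA repair genes, 21 were called lower and 1 higher, with Ung (-0.83), Exo1 (-0.80) and Chek1 (-0.75) among the lower. Nucleotide synthesis had 16 of 23 lower and 1 higher: the pyrimidine pathway enzyme Cad had 8.83 and 8.87 in Tead2-EnR cells, against 10.21 and 10.24 in control cells, a difference of -1.37, and the ribonucleotide reductase subunit Rrm2 fell by 0.81. The G1 machinery split: of 22 genes, 10 were called lower, among them Cdk6 (-0.46), Cdc25a (-0.64) and Ccne2 (-0.54), and 5 higher, among them the pocket proteins Rb1 (0.67) and Rbl2 (0.70), which hold E2F factors inactive; the 5 became 3 without control array 2. Of 8 CDK inhibitors, Cdkn1a (0.90), Cdkn1b (0.55), Cdkn2c (0.50) and Cdkn2d (0.37) rose, and Cdkn2a, which encodes p16 and p19Arf, had -0.08, not called. Cdkn3 was called lower (-0.20), a call lost without control array 1 or either Tead2-EnR array (-0.15 to -0.23).

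The window of Kif23 is shown because it holds the letters TTTGAA, the cell cycle homology region through which DREAM and the Foxm1 complex act, and Kif23 was among the mitosis genes with the largest falls. It spans chr9:61946750-61947049 on the minus strand of GRCm38.p6 (RefSeq), with the motif in capitals at 3 from the start.
Kif23: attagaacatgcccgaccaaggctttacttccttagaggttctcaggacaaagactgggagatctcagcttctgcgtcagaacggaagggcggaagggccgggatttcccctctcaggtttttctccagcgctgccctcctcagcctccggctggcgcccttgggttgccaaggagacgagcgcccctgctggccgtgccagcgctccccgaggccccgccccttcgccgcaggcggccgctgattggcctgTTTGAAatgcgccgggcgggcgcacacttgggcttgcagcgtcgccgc
Of 42 windows of mitosis genes, 78.6% held TTTGAA on either strand, against 13.4% of the windows of all genes tested, and 73.8% held CCAAT, against 37.4%. CCAAT was not particular to genes that fell: it was in 94.1% of 17 windows of unfolded protein response genes and 81.0% of 21 windows of cholesterol synthesis genes.

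Genes of growth arrest rose. Of 30 such genes and FoxO targets, 18 were called higher (60.0%) and 4 lower (13.3%), against 32.4% and 29.8% of abundant messages. Of the 30, 12 were called and rose at least 2-fold, against 2.48% of all genes. Gas6, a ligand of the Axl receptor first found in arrested NIH3T3 cells, had 10.85 and 10.86 in Tead2-EnR cells, against 8.11 and 8.03 in control cells. Pik3ip1, an inhibitor of PI3-kinase, had 10.11 and 10.09 in Tead2-EnR cells, against 7.32 and 7.49 in control cells. Ccng2, an atypical cyclin of resting cells, had 9.20 and 9.19 in Tead2-EnR cells, against 6.60 and 6.74 in control cells. Their rises were 2.79, 2.70 and 2.53, with the groups apart on every array. Trp53inp1 (2.27), the pyruvate dehydrogenase kinase Pdk4 (2.18), the thioredoxin inhibitor Txnip (2.02), Gas1 (1.5), the sestrins Sesn1 (1.32) and Sesn3 (1.56), and Btg1 (1.16) rose too. Targets of p53 did not follow as a group, with 9 of 23 called higher (39.1%) and 8 lower (34.8%). Aen (-0.93) and Plk2 (-1.65) were among the lower. These shares lay not far from the 32.4% and 29.8% of abundant messages, so the counts are no result about the group. In the Bcl-2 family the killer members Bmf and Bcl2l11 (1.68) rose, and Bak1 (-0.42), Bok (-0.43) and Pmaip1 (-0.55) fell.

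**Figure D3:**
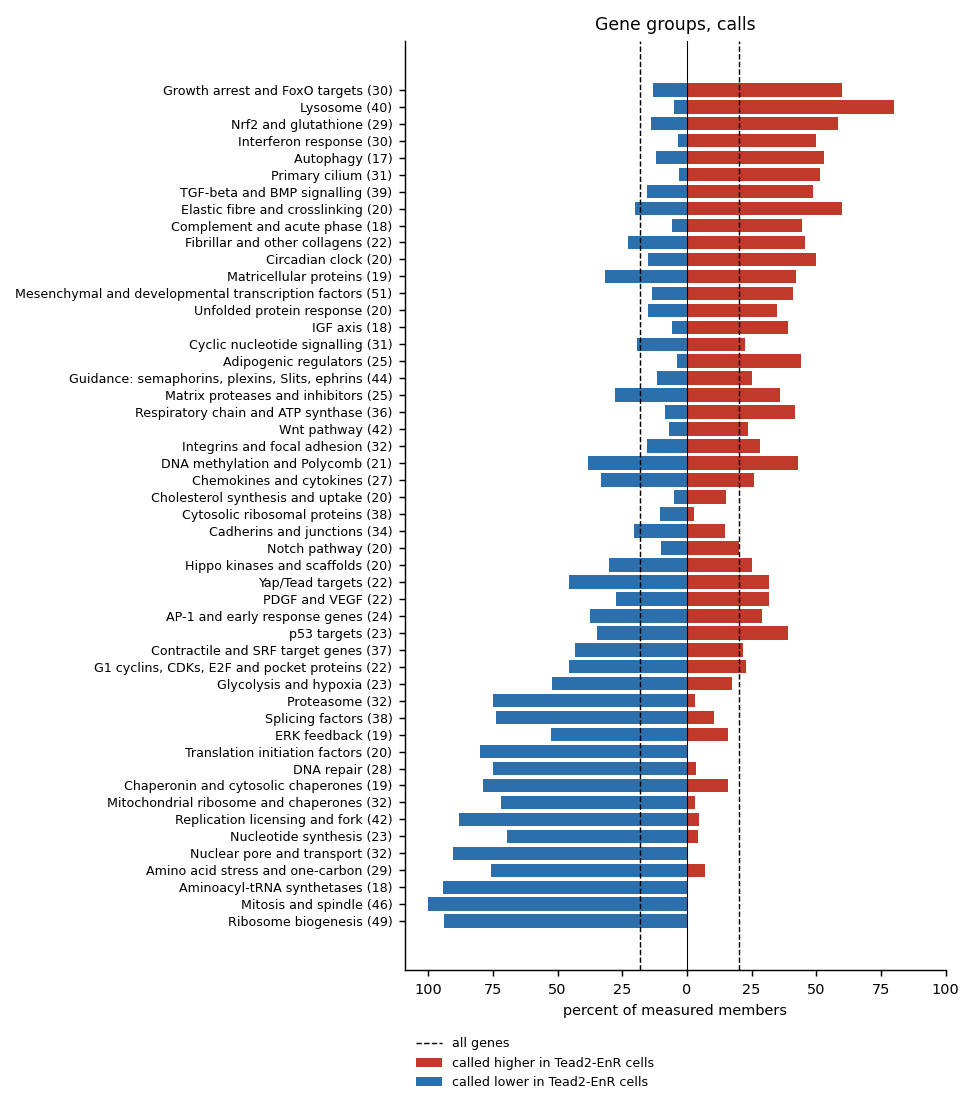
Each bar is a group of genes with at least 17 measured members (number in brackets), giving the percent of members called higher in Tead2-EnR cells (right) and called lower (left), and dashed lines give the shares over all genes, 20.3% and 18.1%. Ribosome biogenesis, mitosis, nuclear pore and aminoacyl-tRNA synthetase genes are nearly all called lower with 0 called higher, and the lysosome group reaches 80.0% higher.

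The genes that build ribosomes fell, and few of those of the finished ribosome were called. Of 49 ribosome biogenesis genes, 46 were called lower and 0 higher, with a median difference of -0.86. Nop16, a nucleolar protein, had 8.75 and 8.71 in Tead2-EnR cells, against 10.11 and 10.16 in control cells. Rrp12, an export factor of ribosomal subunits, had 7.91 and 7.95 in Tead2-EnR cells, against 9.17 and 9.40 in control cells. Nop2, a methylase of ribosomal RNA, had 9.14 and 9.17 in Tead2-EnR cells, against 10.37 and 10.47 in control cells. All 3 lay lower on both Tead2-EnR arrays, with differences of -1.41, -1.35 and -1.26. Of 38 cytosolic ribosomal protein genes, by contrast, 1 was called higher and 4 lower, with a median difference of 0.0018, and without Tead2-EnR array 1 the 4 became 2. Of these Rpl12 (-0.90) stood furthest from 0. With arrays centred on their medians 0 were called higher and 13 lower. Their median level was 13.93 on the Tead2-EnR arrays and 13.92 on the control arrays, near the top of the arrays' range, and whether a change could be read at that level was not tested. In the Myc network, Myc itself had 9.69 and 9.54 in Tead2-EnR cells, against 10.66 and 10.74 in control cells, a difference of -1.08 ± 0.073 (SE, adjusted p = 2.4e-06), Mxd4, a Max partner that represses Myc targets, had 9.36 and 9.37 in Tead2-EnR cells, against 7.37 and 7.39 in control cells, a rise of 1.98, and Max had 0.018, not called. Myc thus fell where Mycn rose. Of 7 genes of polyamine metabolism, 2 were called lower, Odc1 (-1.17) and Srm (-1.19), both textbook Myc targets. The 2 called higher were Sat1 (0.55), which acetylates polyamines, and the antizyme Oaz2 (0.45), and the median difference was 0.03. Each count is 28.6% of the genes, near or below the 32.4% and 29.8% of abundant messages, so the counts are no result about the group.

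Other parts of the protein synthesis machinery moved the same way. Of 20 translation initiation factors, 16 were called lower and 0 higher, with Eif1a (-0.70), Eif4ebp1 (-0.68) and Eif4e (-0.59) among them. Of 18 cytosolic aminoacyl-tRNA synthetases, which load amino acids on tRNAs, 17 were called lower and 0 higher: Cars had 9.30 and 9.30 in Tead2-EnR cells, against 10.35 and 10.39 in control cells, and Iars had 9.87 and 9.83 in Tead2-EnR cells, against 10.81 and 10.80 in control cells. Genes of amino acid stress and one-carbon metabolism, many of which Atf4 drives, had 22 of 29 called lower and 2 higher. Stc2, a secreted glycoprotein, had 6.73 and 6.74 in Tead2-EnR cells, against 8.46 and 8.38 in control cells. Cth, which makes cysteine, had 8.62 and 8.64 in Tead2-EnR cells, against 10.20 and 10.22 in control cells. Shmt2, the mitochondrial serine hydroxymethyltransferase, had 9.91 and 9.86 in Tead2-EnR cells, against 11.24 and 11.40 in control cells. The differences were -1.68, -1.58 and -1.44, and the cystine carrier Slc7a11 (-1.25), the folate enzyme Mthfd2 (-1.24), the pseudokinase Trib3 (-1.21), Chac1 (-1.18) and the leucine carrier Slc7a5 (-1.14) fell as well. The unfolded protein response, which shares some of these genes' controls, did not fall as a group, with 7 of 20 called higher, Dnajb9 (0.98) and Xbp1 (0.79) first, and 3 lower, or 6 higher and 7 lower with arrays centred on their medians.

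The Iars window, chr13:49681880-49682179 on the plus strand of GRCm38.p6 (RefSeq), is shown for the letters TGATGCA, part of the composite site of C/EBP and ATF factors, here on the other strand (TGCATCA) in capitals at 9 from the start.
Iars: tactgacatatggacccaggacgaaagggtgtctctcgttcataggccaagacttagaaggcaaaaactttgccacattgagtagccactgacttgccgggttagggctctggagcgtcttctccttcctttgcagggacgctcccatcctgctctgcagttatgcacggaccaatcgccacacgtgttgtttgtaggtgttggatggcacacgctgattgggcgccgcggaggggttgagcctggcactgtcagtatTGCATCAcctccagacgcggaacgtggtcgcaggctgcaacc
These letters were in 33.3% of 12 synthetase windows and 13.3% of the windows of the amino acid stress group, against 2.3% of the windows of all genes tested. They were also in 14.3% of 21 windows of p53 targets, which were called in both directions.

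Genes for the transport, folding and turnover of proteins and RNA fell as well. Of 32 nuclear pore and transport genes, 29 were called lower and 0 higher, with Rcc1 (-1.18), Nup43 (-0.93) and Nup205 (-0.86) first. Of 32 genes of the mitochondrial ribosome, import and chaperones, 23 were called lower and 1 higher: Timm9, an import chaperone, had 7.60 and 7.58 in Tead2-EnR cells, against 8.76 and 8.56 in control cells, a difference of -1.07, and Mrpl12 fell by 0.84. The cytosolic chaperonin and chaperones had 15 of 19 lower and 3 higher, with Hsph1 (-0.80), Hspa4 (-0.71) and Cct8 (-0.65) among the lower and the small heat shock protein Cryab (1.09) among the higher. The proteasome had 24 of 32 lower, Psmd3 (-0.54) first, and 1 higher, the interferon-induced subunit Psmb9 (0.95). Splicing factors had 28 of 38 lower and 4 higher, with Snrpa1 lowest (-0.68), and without any array the 4 became 2. The respiratory chain did not share this: 15 of 36 genes were called higher and 3 lower, the largest rise being Sdhb (0.61), while Cycs (-0.61) and Cyc1 (-0.39) fell, but with arrays centred on their medians the counts turned to 6 higher and 12 lower. Cholesterol synthesis had 16 of 20 genes not called. Glycolysis and hypoxia genes had 12 of 23 called lower, Hk2 (-0.80) furthest, and 4 higher, with the peptide hormone gene Adm (1.39) first.

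Lysosomal genes rose while the groups above fell. Of 40 measured, 32 were called higher and 2 lower, with a median difference of 0.52. Atp6v0d1, a subunit of the proton pump that acidifies the lysosome, had 10.85 and 10.82 in Tead2-EnR cells, against 9.54 and 9.66 in control cells. Lamp2, a main protein of the lysosomal membrane, had 11.35 and 11.25 in Tead2-EnR cells, against 10.35 and 10.31 in control cells. Naglu, which degrades heparan sulphate, had 7.48 and 7.59 in Tead2-EnR cells, against 6.52 and 6.66 in control cells. The arrays lay apart for all 3, with rises of 1.24, 0.97 and 0.95. Progranulin Grn (0.90), the cathepsins Ctsa (0.84), Ctsb (0.80) and Ctsd (0.77) and the hexosaminidase Hexa (0.79) rose, and Cd68 (-0.57) fell. Of 17 autophagy genes, 9 were called higher, among them the kinases Ulk1 (0.62) and Ulk2 (1.41) and the membrane marker Map1lc3a (0.72), and 2 lower, among them Atg5 (-0.29).

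The windows of Atp6v0d1, the lysosomal gene with the largest rise, and of Timm9, the mitochondrial import gene with the largest fall, are shown side by side because both hold the palindrome CACGTG, the E-box core that Myc and Max and the lysosomal regulators of the Tfeb family can all bind. The first spans chr8:105566015-105566314 with the core at -3, and the second spans chr12:71136626-71136925 with the core at -58 and -1, both on the minus strand of GRCm38.p6 (RefSeq), in capitals.
Atp6v0d1: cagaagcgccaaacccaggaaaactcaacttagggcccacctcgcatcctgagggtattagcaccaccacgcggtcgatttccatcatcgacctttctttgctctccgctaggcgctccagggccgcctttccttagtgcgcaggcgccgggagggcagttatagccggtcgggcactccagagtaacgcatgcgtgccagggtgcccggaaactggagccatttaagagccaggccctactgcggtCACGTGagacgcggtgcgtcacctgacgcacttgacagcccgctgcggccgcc
Timm9: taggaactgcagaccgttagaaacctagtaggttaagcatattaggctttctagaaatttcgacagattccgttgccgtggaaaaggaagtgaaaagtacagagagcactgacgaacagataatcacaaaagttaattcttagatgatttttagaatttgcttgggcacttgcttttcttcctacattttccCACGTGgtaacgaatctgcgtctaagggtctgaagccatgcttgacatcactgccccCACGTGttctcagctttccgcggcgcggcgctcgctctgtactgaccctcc
The core was in 40.0% of 40 windows of lysosomal genes, which rose, and in 37.9% of 29 windows of the mitochondrial group, 33.3% of 12 windows of the synthetases and 20.8% of 53 windows of ribosome biogenesis, which fell, against 8.7% over all genes tested. It therefore marked groups that moved in opposite directions.

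**Figure D4:**
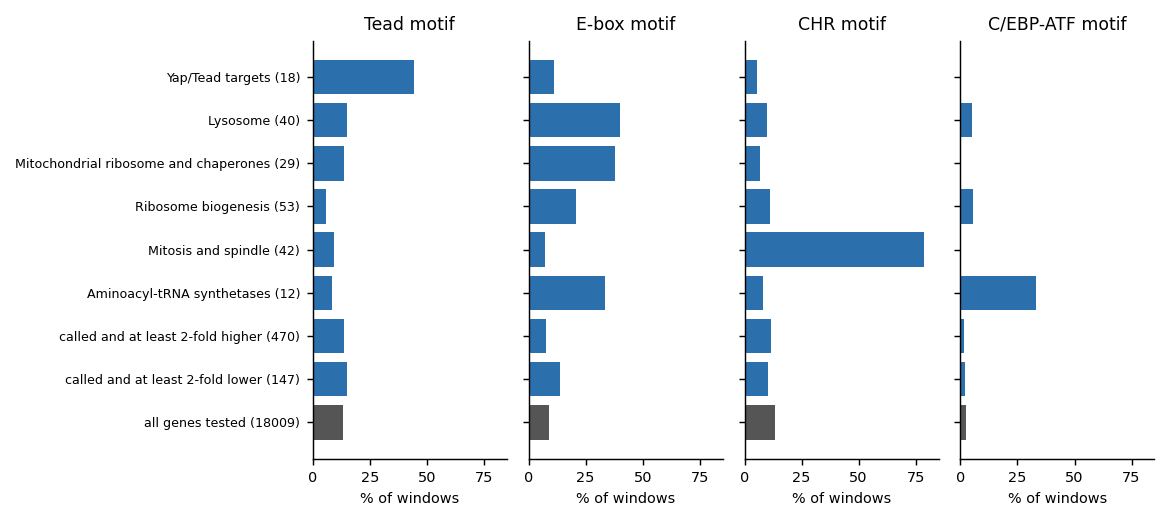
Percent of promoter windows (x axes, with the number of windows in brackets) that hold a motif on either strand, for 4 motifs, 6 gene groups, the genes called and at least 2-fold higher or lower, and all genes tested. Of the groups drawn, the Yap/Tead targets hold the Tead core most often, at 44.4%, and mitosis genes hold the cell cycle motif (CHR) most often, at 78.6%, while the genes that changed at least 2-fold hold the Tead core at close to the 13.2% of all genes.

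Detoxification genes and cilium genes rose. Of 29 Nrf2 and glutathione genes, 17 were called higher and 4 lower: Gsta4 had 11.84 and 11.85 in Tead2-EnR cells, against 9.29 and 9.35 in control cells, a rise of 2.52, and the microsomal transferase Mgst1 (1.91) and the quinone reductase Nqo1 (1.46) rose, while Gsr (-0.62) and Txnrd1 (-0.56) fell. Gstm1 (1.97) and Gstm2 (1.26) are near-identical copies whose probes may share signal. Of 31 genes of the primary cilium, the antenna that resting cells grow, 16 were called higher and 1 lower, with the transport protein Ift122 (1.03) and the Bardet-Biedl protein Bbs2 (0.88) first and the Hedgehog transducer Smo at 0.45. The circadian clock had 10 of 20 members higher and 3 lower, with Rora (1.78), Hlf (1.60), Dbp (1.28) and Per3 (0.75) among the higher. Among chromatin proteins, the linker histone H1f2 rose by 2.25, and Hmga2, an architectural protein of growing and embryonic cells, had 10.18 and 10.25 in Tead2-EnR cells, against 11.53 and 11.49 in control cells, a difference of -1.29.

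Growth factor genes were called in both directions, at shares near those of abundant messages or below them: 3 higher and 3 lower of 13 in the EGF family, 5 and 3 of 16 FGF ligands and receptors, and 7 and 6 of 22 PDGF and VEGF genes. Without control array 1 or Tead2-EnR array 2, 1 gene of the EGF family was called higher, and without Tead2-EnR array 1, 5 FGF genes were called lower. Among the ligands, Hbegf and epiregulin (Ereg, -1.07) of the EGF family, Fgf2 (-1.06) and Pdgfa (-0.76) fell, and Fgf7 (0.70) and Igf1 (0.44) rose. Among the receptors, Pdgfra had 10.99 and 10.94 in Tead2-EnR cells, against 9.10 and 8.98 in control cells, a rise of 1.92, and Fgfr2 (1.63), Fgfr1 (0.99) and Pdgfrb (0.84) rose while the hepatocyte growth factor receptor Met (-1.08) fell. Of 19 feedback genes of the ERK pathway, whose messages follow its activity, 10 were called lower (52.6%) and 3 higher (15.8%). Of abundant messages 29.8% were called lower and 32.4% higher. Etv5 (-1.16), Spry1 (-0.87), Etv4 (-0.75), Dusp6 (-0.72) and Spry2 (-0.68) fell. The early response genes did not share 1 direction, with 7 of 24 (29.2%) called higher, Egr2 (1.20) and Fos (0.70) among them, and 9 (37.5%) lower, Fosl1 first.

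In the TGF-beta and BMP pathway, 19 of 39 genes were called higher (48.7%) and 6 lower (15.4%). Of abundant messages 32.4% were called higher and 29.8% lower. The ligands Tgfb2 (1.78) and Tgfb3 (1.15), the receptor Tgfbr2 (0.74) and the BMP targets Id3 (1.60), Id2 (0.91) and Smad6 (1.29) rose, and the activin subunit Inhba (-1.21) and the Smad inhibitor Skil (-1.03) fell. The Notch ligand Jag1 (1.31) and the receptor Notch1 (1.20) rose, and 14 of 20 Notch genes were not called. The Wnt pathway had 29 of 42 genes not called, with the ligand Wnt9a (0.82) and the receptor Fzd4 (0.74) among 10 called higher.

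The cytoskeleton and adhesion genes were mixed. Of 37 contractile genes and targets of SRF, 16 were called lower (43.2%) and 8 higher (21.6%), against 29.8% and 32.4% of abundant messages. Srf itself (-0.88), Fhl2 (-1.09), Actn1 (-0.83) and Zyx (-0.63) fell, while the myosin kinase Mylk rose by 2.18. The integrins Itgb8 (2.16) and Itga1 (1.60) rose and Itga6 (-0.85) fell. Of 34 genes of cadherins and junctions, 5 were called higher (14.7%), 7 lower (20.6%) and 22 not called. These shares were near or below the 20.3% and 18.1% of all genes, so the counts are no result about the group. Among single genes, Gja1, the gap junction protein connexin 43, had 9.73 and 9.74 in Tead2-EnR cells, against 11.31 and 11.24 in control cells, a difference of -1.55, and the cadherin Cdh2 (-0.61) and Alcam (-1.02) fell.

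Among 51 mesenchymal and developmental transcription factors, 21 were called higher (41.2%) and 7 lower (13.7%), against 32.4% and 29.8% of abundant messages. Besides Sox4 and Eya1, Ebf1, a factor of B cells and fat precursors, had 9.78 and 9.86 in Tead2-EnR cells, against 7.30 and 6.88 in control cells, a rise of 2.73, and Mef2c (1.03), Snai2 (1.01) and Zeb2 (0.77) rose. Genes linked to fat cell precursors included Agt (2.45), Cebpd (1.86) and Dlk1 (1.24) among the rises, but Pparg (0.076), Cebpa (-0.052) and Adipoq (-0.21) were not called. Innate immune genes rose in part: 15 of 30 interferon response genes were called higher, among them Gbp2 (1.75), Ifit3 (1.24) and B2m (0.84), and 1 lower. Complement and acute phase genes had 8 of 18 higher (44.4%, against 20.3% of all genes and 32.4% of abundant messages), among them Ptx3 (1.59) and C1ra (1.28). The 1 member called lower was C1qtnf3 (-2.32), the deepest fall of the comparison. Chemokines split, with Ccl9 (2.71) and Cx3cl1 (1.29) higher and Cxcl5, Ccl7 (-1.14) and Ccl2 (-0.95) lower.

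The study also holds control cells at complete confluency, which allows the values to be read beside those of crowded cells. Because the low-density control arrays enter both the repressor difference and the density difference, the differences are given side by side only. Sned1 averaged 11.87 in Tead2-EnR cells at low density, 13.20 in confluent control cells and 6.89 in control cells at low density. Islr averaged 8.18 in Tead2-EnR cells, 8.32 in confluent control cells and 3.60 in low-density control cells. Islr was not called between Tead2-EnR cells and confluent control cells (-0.14), nor were Plpp3 (-0.047), Wfdc18 (0.069), Ankrd1 (-0.11) and Stc2 (-0.011). Some genes passed the confluent level: Lbp averaged 9.74 in Tead2-EnR cells against 7.17 in confluent control cells, Mgp 10.66 against 8.36, Thbs1 10.67 against 8.64 and Fmod 8.26 against 6.31 in the same groups, and all 4 were called higher. Others stayed far from it. Dcn averaged 11.13 in Tead2-EnR cells and 13.35 in confluent control cells, and Ccn2 averaged 10.99 in Tead2-EnR cells and 6.51 in confluent control cells. Over all genes, 34.7% were called between Tead2-EnR cells at low density and confluent control cells, a comparison in which the construct and the density both differ.

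The activator fusion, Tead2-VP16, was compared with control cells only at complete confluency, so density differs between the fusions as well. The VP16 and confluent control arrays are other arrays than those of the repressor comparison. Of all genes, 9.98% (1815) were called between Tead2-VP16 and control cells at confluency. Called in both comparisons were 1263 genes, which is 18.1% of the repressor's calls and 69.6% of the activator's. The repressor comparison called 38.4% of all genes and 62.2% of genes whose higher group mean lay above the median gene. The 69.6% lay not far from that 62.2%, so the overlap is no result about shared genes. Of the 1263 genes, 864 had opposite signs and 399 the same sign. Among the 864, 402 were lower with the repressor and higher with the activator, and 462 were the reverse. The difference of the effects itself, Tead2-EnR minus control at low density less Tead2-VP16 minus control at confluency, was called for 32.7% of all genes. Edn1 had -1.84 with Tead2-EnR and 1.20 with Tead2-VP16, a difference of effects of -3.04 (adjusted p = 3.0e-08). Edn1 was named for its fall with Tead2-EnR, which enters this difference, so only its Tead2-VP16 value is free of that choice. Ankrd1 had -2.01 with Tead2-EnR and 0.78 with Tead2-VP16, a difference of effects of -2.80 (adjusted p = 3.9e-07). Ccn1 had -0.59 with Tead2-EnR and 0.99 with Tead2-VP16. The 3 genes were thus lower with the repressor fusion and higher with the activator fusion. Cth (-1.58 with Tead2-EnR and 0.95 with Tead2-VP16), Prkg2 (-1.65 and 0.72), Lrrfip1 (-1.56 and 0.66), Gask1b (-2.04 and 0.53) and Plk2 (-1.65 and 0.51) were so too, each called in both comparisons. They too were named for their falls with Tead2-EnR. Among the largest rises, Sned1 had 4.97 with Tead2-EnR and -1.53 with Tead2-VP16, and Wfdc18 had 3.0 with Tead2-EnR and -1.49 with Tead2-VP16. Not every gene went opposite ways: Lbp rose with both, by 3.52 with Tead2-EnR and 1.28 with Tead2-VP16, and C1qtnf3 fell with both, with -2.32 for Tead2-EnR, -2.76 for Tead2-VP16 and a difference of effects of 0.44 that was not called (adjusted p = 0.067). Of the 46 mitosis and spindle genes, all lower with Tead2-EnR, 23 were called lower and 1 higher with Tead2-VP16 (median -0.30). The 28 DNA repair genes had 7 lower and 0 higher with Tead2-VP16. By contrast, 17 of 29 amino acid stress and one-carbon genes were called higher with Tead2-VP16 and 1 lower. The 22 Yap and Tead targets had 8 higher and 0 lower with Tead2-VP16.

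**Figure D5:**
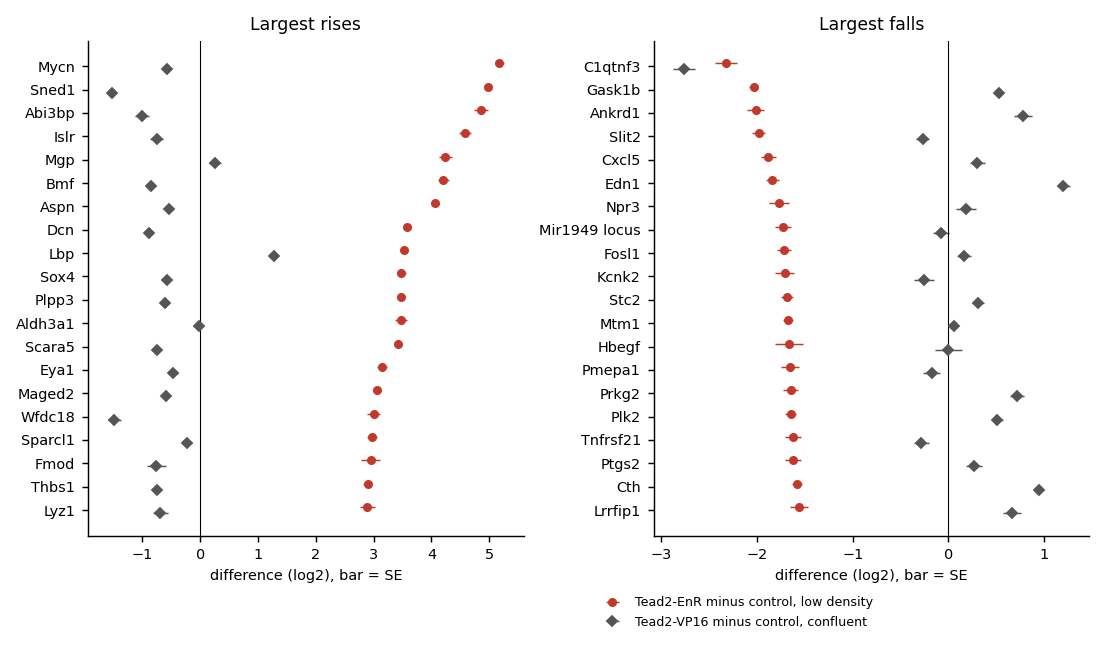
Difference from control on the log2 scale (x axis, bars are SE from the limma fit) for the 20 largest rises and 20 largest falls with Tead2-EnR, with Tead2-EnR at low density as circles and Tead2-VP16 at complete confluency as diamonds. Most diamonds lie near 0 or on the other side of it, and C1qtnf3 and Lbp lie on the same side with both fusions.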

How the data were processed

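RNA of NIH3T3 cells in 6 labelled groups was hybridised to 12 arrays, and the 4 arrays of the repressor and control groups at low density are the subject here. The authors deposited linear intensity values per probe set (3.774 to 25980), made with RMA per the submitters' processing notes, its version and settings not given in the sources used here. RMA equalises array distributions, so a change in total RNA per cell is not visible. No detection calls were used. Log2 was taken of the deposited intensity, and each of 18193 genes with a single symbol in the platform annotation was read by its brightest probe set on average over the 12 arrays (34945 of 45101 probe sets had 1 symbol, 932 several and 9160 none). Differences between group means were tested with limma 3.58.1 (R 4.3.3, lmFit and eBayes, 6 group means over all 12 arrays), with Benjamini-Hochberg adjustment over all genes, after a test on simulated data. The number of arrays, 2 per group, limits the precision. Genes named are the 20 largest rises and falls past 2-fold, a few fixed genes, and members of gene lists chosen by size of change. The largest rises and falls were limited to groups that do not overlap and a higher group mean above the median gene. The mean of the other group could lie below it. The members and lists were chosen with earlier results of these data known. Deviations of same-numbered arrays did not go together (r = -0.0068), so replicate numbers pair nothing. Promoter windows are RefSeq's, matched by gene for 14368 genes.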

Additional observations from a re-analysis of the deposited data

How the results depend on the processing

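The count of 6980 called genes was 5815 to 6249 when 1 of the 4 arrays was left out, 12393 when every probe set was tested in place of 1 per gene, and 601 when a 2-fold difference with no test was used. The count of 5948 genes for the difference of the effects of the fusions was 5030 to 5471 when 1 of the arrays was left out, 10130 over every probe set and 935 by the 2-fold rule. The other alternatives run, a filter on low levels, a pseudocount, the mean of all probe sets, a variance trend, repeated quantile normalization, centring and the arrays of the comparison alone, kept both counts within 1.5 times. Repeated quantile normalization put the higher calls at 47.4%. Centring put them at 32.1% against 52.8% for the repressor, and at 30.5% against 54.1% for the difference of the effects. With the replicate number as a block the counts were 6945 and 5851, and no named gene changed its call, though the numbers do not pair the arrays. Centring moved 36 of 124 counts of list members called higher or lower by over 1.5 times, and leaving out an array moved 10 to 15 of them, mostly counts of 1 to 3. Of 286 genes followed, none reversed. With 2 arrays per group, depth of replication and the missing detection calls limit what can be said of genes at the low end of the range.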

Other observations

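Prostaglandin, cyclic nucleotide and guidance genes were called in both directions in Tead2-EnR cells relative to control cells at low density. Of all genes 20.3% were called higher and 18.1% lower, and of genes above the median level 32.4% and 29.8%. The shares were 35.7% and 28.6% for prostaglandin genes, 22.6% and 19.4% for cyclic nucleotide genes and 25% and 11.4% for guidance genes, which is near or below these values, so the counts are no result about the groups and only single members are described. Of 14 prostaglandin genes, 5 were called higher and 4 lower: besides Ptgs2, the phospholipase Pla2g4a, which frees arachidonic acid, fell by 0.82, while the prostaglandin receptors Ptger4 (0.75), Ptgfr (0.78) and Ptgir (0.57) and the synthase Ptges (0.64) rose; without control array 1 the higher count became 3. Of 31 genes of cyclic nucleotide signalling, 7 were called higher and 6 lower, which became 4 higher without Tead2-EnR array 2 and 3 lower without control array 1. The natriuretic peptide receptors split, with Npr2, the signalling receptor, at 0.63 and Npr3, the clearance receptor, at -1.77. Among 44 guidance genes, 11 were called higher and 5 lower: Sema3b (1.74) and the plexins Plxna2 (1.22) and Plxnd1 (1.05) rose, and Sema3a (-1.16), Epha2 (-1.21) and Slit2 (-1.98) fell; without Tead2-EnR array 2 the lower count became 3.

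Of 21 genes of DNA methylation and Polycomb, 9 were called higher and 8 lower, and the 8 became 5 without control array 1 or Tead2-EnR array 2. The maintenance DNA methylation genes Dnmt1 (-0.53), Uhrf1 (-0.67) and Hells (-0.69) fell, and Dnmt3a (0.46) and Tet1 (0.59) rose. The Polycomb methylases went opposite ways, with Ezh1 at 0.88 and Ezh2 at -0.36. In the IGF axis 7 of 18 genes were called higher, with the binding protein Igfbp7 (1.33) and the protease Pappa (0.80) first, and 1 lower, the RNA-binding protein Igf2bp1 (-0.91), which became 2 lower without control array 2. Of 15 genes of fatty acid synthesis, 6 were called higher and 3 lower. Lpin1 (0.91) and Scd1 (0.65) rose, and Fasn (-0.52) and Acsl4 (-0.60) fell. The shares called higher were 42.9% for DNA methylation and Polycomb, 38.9% for the IGF axis and 40% for fatty acid synthesis. These lay not far from the 32.4% of genes above the median level. DNA methylation and Polycomb had 38.1% called lower, against 29.8% of those genes. The counts of rises are thus no result about the groups, nor is the count of falls in DNA methylation and Polycomb.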
